A study of Mus musculus with 3 samples.

Results

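Natural killer (NK) cells of the mouse aorta were examined in single-cell data that pair transcripts with surface antibodies (CITE-seq) from CD45+ leukocytes of 10 aortas. They were chosen by transcripts alone. A cell was taken when Ncr1 and Klrb1c together gave at least 2 UMIs, each UMI (unique molecular identifier) being 1 counted molecule. It also had to carry no UMI of the T cell gene Cd3e or the B cell gene Cd79a, not to hold both Trdc and Cd3g or both Gata3 and Il5, and to stay below 10 UMIs of the macrophage genes C1qa, C1qb and C1qc per 10000. This gave 83 cells, here called NK cells, among 5894 kept cells, out of 8471 barcodes in the table. The rule held no limit to separate type 1 innate lymphoid cells, so any such cells were counted as NK cells. A kept cell had a leading hashtag at least 3 times the next one, at most 10% mitochondrial UMIs and at least 1000 UMIs. Of 115 kept cells with enough Ncr1 and Klrb1c, 22 were left out for Cd3e, 2 for Trdc with Cd3g, 3 for Cd79a and 5 for the C1q limit.

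The mice were 5 Jak2WT animals (mice 1 to 5) and 5 Jak2V617F Myel animals (mice 6 to 10), all on a C57BL/6 background and untreated, and their age and the Cre status of the Jak2WT mice are not given in the sources used here. In Jak2V617F Myel mice, Cre recombinase under the Lysozyme M promoter, which acts mainly in myeloid cells, switches on a heterozygous Flex allele of Jak2V617F. Mice 6, 8 and 10 had aortic dilation and mice 7 and 9 had an aneurysm. Leukocytes in the circulation were marked by anti-CD45.2 injected into a vein and left out of the sort, about equal numbers of cells were sorted per genotype, and all 10 mice went into 1 pooled run, so only shares within a mouse can be compared between mice. The NK cells held 728268 UMIs in all, with a median of 7530 UMIs per cell (range 2589 to 33497) and 2484 genes, and a median of 262 antibody counts. T cells had a median of 7397.5 UMIs and 444 antibody counts.

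NK cells are innate lymphocytes that release perforin and granzymes onto infected, transformed or stressed cells and secrete interferon-gamma and chemokines. Their killing is set by the balance of activating receptors such as NKp46 (Ncr1) and NKG2D (Klrk1), which signal through small adaptors, and of inhibitory receptors of the Ly49 (Klra) and CD94/NKG2A (Klrd1, Klrc1) families, which bind MHC class I. Eomes and T-bet (Tbx21) direct their maturation, and IL-15, read through the receptor chain Il2rb and the kinase Jak1, keeps them alive.

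The 4 genes that mark these cells lie on 4 chromosomes, and the 200 bases before each RefSeq start are shown because these genes are used to recognise the cells. Ncr1 (ENSMUSG00000062524) spans chr7:4337724-4345164 on the plus strand, Klrb1c (ENSMUSG00000030325), which encodes NK1.1, spans chr6:128778485-128789215 on the minus strand, Gzma (ENSMUSG00000023132), which encodes granzyme A, spans chr13:113093825-113100981 on the minus strand, and Prf1 (ENSMUSG00000037202), which encodes perforin, spans chr10:61297833-61304680 on the plus strand. Gene spans are from GENCODE vM21 and the sequences from RefSeq, both on GRCm38 (mm10). The windows are chr7:4337515-4337714 (plus), chr6:128788642-128788841 (minus), chr13:113100982-113101181 (minus) and chr10:61297636-61297835 (plus). The Klrb1c window lies inside the longer GENCODE gene, and Ncr1 has 2 windows in the table, of which the first is shown. Capitals mark TGTGGT, the core letters bound by Runx factors, or its reverse complement ACCACA.
Ncr1: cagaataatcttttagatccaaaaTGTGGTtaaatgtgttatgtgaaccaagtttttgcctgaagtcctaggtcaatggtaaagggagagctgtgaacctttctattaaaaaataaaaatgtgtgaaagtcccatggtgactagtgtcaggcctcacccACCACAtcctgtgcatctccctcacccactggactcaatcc
Klrb1c: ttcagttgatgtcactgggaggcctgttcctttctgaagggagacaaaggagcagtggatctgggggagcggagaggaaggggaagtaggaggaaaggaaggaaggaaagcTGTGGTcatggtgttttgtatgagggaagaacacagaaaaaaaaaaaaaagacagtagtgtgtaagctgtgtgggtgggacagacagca
Gzma: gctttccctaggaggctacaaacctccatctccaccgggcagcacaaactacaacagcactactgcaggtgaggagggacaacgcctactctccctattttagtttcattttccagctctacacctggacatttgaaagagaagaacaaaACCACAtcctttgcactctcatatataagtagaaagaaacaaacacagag
Prf1: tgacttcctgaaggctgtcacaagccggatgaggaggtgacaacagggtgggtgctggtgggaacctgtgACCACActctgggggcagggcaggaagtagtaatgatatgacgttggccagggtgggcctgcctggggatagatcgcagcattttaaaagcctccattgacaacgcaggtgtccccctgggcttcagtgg
Both strands were searched for these 6 letters. The Ncr1 window held 2 matches, 176 and 41 bases before the start, and the others held 1 each, at 89 (Klrb1c), 50 (Gzma) and 130 (Prf1) bases before it. Among 32851 promoter windows of the same length, 3665 (11.2%) held the letters, so a match is a description of the sequence only.

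The surface antibody against NK1.1, which the choice of cells did not use, was bound by all 83 NK cells. With the 99th percentile of the B cells (6 counts) as background, the NK cells ranged from 7 to 91 counts with a median of 33, while the T cells had a median of 1 and 9 of 708 (1.27%) lay above it. Above background were also 3 of 196 type 2 innate lymphoid cells (ILC2, 1.53%) and 298 of 2913 macrophages (10.2%), the latter with a median of 10708 UMIs per cell. Per mouse, the mean NK1.1 count on NK cells was 32.5, 29.6, 40.5, 26.2, 30.8, 51.4 and 39 in mice 1, 5, 6, 7, 8, 9 and 10, the 7 mice with at least 5 NK cells. The T cells of the same mice had means from 0.256 to 1.84, with no overlap between the classes. The T cells, ILC2 and B cells were defined as having no Ncr1 or Klrb1c UMI, so the gap between the classes is partly fixed by their definition.

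**Figure D1:**
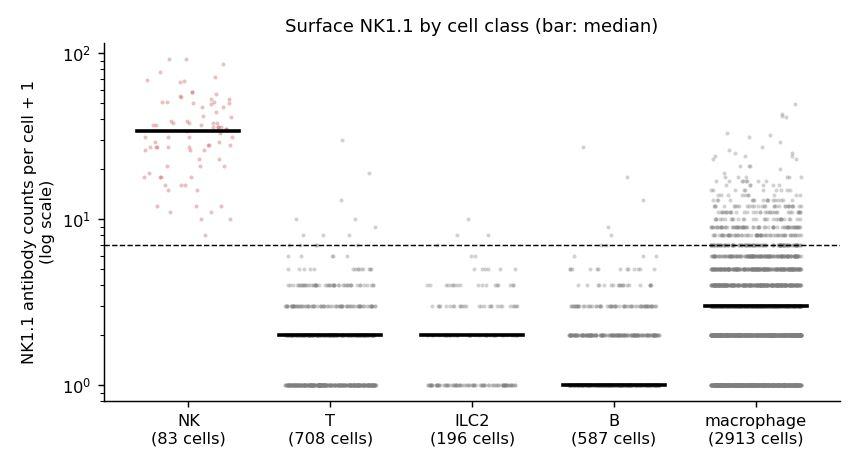
NK1.1 antibody counts per cell plus 1 (log axis) by cell class, with 1 point per cell, a bar at the median and a dashed line at the background level taken from B cells. All 83 NK cells lie above 6 counts, with a median of 33, against a median of 1 in T cells.

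The rule left out cells that also bound the antibody. Outside the NK cells, 436 kept cells reached the lowest NK1.1 count of the NK cells, and 22 reached their median. Of these 22, 20 had a UMI of Ncr1 or Klrb1c, 9 had Cd3e and 4 were macrophages. Macrophages had a median of 1519 antibody counts in all, and the B cells that set the background 653. Of 1407 kept cells of no class, 121 (8.60%) were above background. A gate on the antibody instead took 108 cells, of which 80 were NK cells by transcripts and 18 had no UMI of either gene. The 22 cells left out for Cd3e had a median of 23 NK1.1 counts, 20 of them above background, and the 5 left out by the C1q limit a median of 47. At the edge of the rule, the 3 cells with exactly 2 UMIs had NK1.1 counts from 18 to 66, and the 2 cells with 1 UMI had 0 and 23. Few NK cells exceeded the B cell background for T cell proteins. They numbered 1 of 83 for CD3, 3 for TCR-beta, 0 for TCR-gamma-delta and 1 for CD5. The same limits were exceeded by 55.5%, 61.2%, 12.3% and 65.8% of T cells, so a lower count does not exclude a T cell. Some transcripts of other lineages were present. The T cell receptor constant genes Trbc1 and Trbc2 stood at 383 and 323 CPM (the gene's UMIs scaled to 1000000 UMIs of the class), while Cd3g, Cd3d and Trac stood at 41.2, 35.7 and 19.2, and Cd3e, Cd8a, Cd8b1, Cd79a, Il5, Il13 and Il22 were at 0. The T cell list of 10 genes summed to 960 CPM in NK cells and 6361 in T cells, and the macrophage list of 10 genes to 551 CPM in NK cells, 519 in T cells and 26506 in macrophages, its most abundant gene in NK cells being Lyz2. Cd3e, Cd79a, Ncr1 and Klrb1c were used to choose the cells, so their values carry no test.

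Against the T cells of the same 7 mice, 7 of 39 antibodies tested were raised on NK cells (17.9%) and 9 were lowered (23.1%) by edgeR's quasi-likelihood test with the mouse as a block and Benjamini-Hochberg adjustment. For 7 of 39 (17.9%) the per-mouse counts per cell of the 2 classes did not overlap, and overlap of antibodies below refers to these. On the values scaled for the test, 10 of 39 did not overlap. NK1.1 was raised by 5.49 on the log2 scale (SE 0.44, adjusted p = 1.65e-06), between classes that were split on its transcript. CD11c, an integrin chain also carried by dendritic cells, was raised by 3.25 and higher in 7 of 7 mice, with NK counts per cell of 4.9, 1.4, 18, 3.72, 2.8, 1 and 2.27 in mice 1, 5, 6, 7, 8, 9 and 10 against 0.222 to 1.18 on T cells. In mouse 6, 1 cell with many MHC class II UMIs held 171 of 198 CD11c counts, and the mean was 2.7 without it. The adhesion molecules ICAM1 (1.56) and CD49d (1.17), the myeloid and NK integrin chain CD11b (1.15), the ectonucleotidase CD39 (1.00) and the tetraspanin CD9 (1.00) were raised by less, and their per-mouse counts overlapped with those of T cells. NK cells carried fewer antibody counts per cell than T cells, and with counts scaled to the number of cells 3 antibodies were raised and 9 lowered, CD49d, CD11b, CD39 and CD9 keeping their sign but missing the threshold. These 4 calls were weak: of 13 alternatives, 12 ended that of CD9, among them DESeq2 and leaving out any 1 of the 7 mice, 8 each those of CD49d and CD11b, and 5 that of CD39.

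Most antigens lowered on NK cells belong to T cells. CD5, a T cell receptor regulator, fell by 6.99 (SE 0.76, adjusted p = 2.27e-05), with 0.2, 12.4, 0.0909, 0.96, 0.4, 0.286 and 2.13 counts per NK cell in mice 1, 5, 6, 7, 8, 9 and 10 against 74.0 to 156 on T cells. Mouse 5 stood above the other mice, and 1 of its 5 NK cells carried 61 CD5 counts. The co-receptors CD8a (-5.58) and CD4 (-5.58), the T cell receptor parts CD3 (-5.07) and TCR-beta (-4.81) and the IL-7 receptor chain CD127 (-4.11) also fell, and none of their per-mouse counts overlapped. The classes were split on CD3 transcripts, which fixes part of the CD3 difference by definition. The integrin CD103 (-4.85) and the peptidase CD26 (-2.31) fell, both with overlap between the classes. Of 13 alternatives, 3 ended the call of CD26. Of 12 alternatives, 2 ended that of CD103, whose change ranged from -6.48 to -2.57.

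Against the ILC2 of the same mice, 6 of 25 antibodies tested were raised on NK cells (24%) and 5 were lowered (20%). The per-mouse counts per cell did not overlap for 4 of 25 (16%), and the values scaled for the test for 6 of 25. NK1.1 was raised by 5.35 (SE 0.54, adjusted p = 1.28e-06), again between classes split on its transcript, with 0.2 to 2.44 counts per cell on ILC2 in the 7 mice and no overlap with the NK cells. CD11c (2.73), the co-stimulatory ligand CD86 (1.14), CD11b (1.04) and ICAM1 (0.93) were raised with overlap. CD127 (-5.15), the stem cell factor receptor CD117 (-3.99), the integrin chain ITGB7 (-2.61), CD24 (-2.41) and the hyaluronan receptor CD44 (-2.40) fell. CD86, CD11b and ICAM1 were not called with at least 3 Ncr1 and Klrb1c UMIs, nor with at least 10 cells per mouse. The latter setting also lost ITGB7 and CD24. CD44 had 10.3, 11.6, 39.5, 27.9, 22.2, 22.6 and 13.5 counts per NK cell in mice 1, 5, 6, 7, 8, 9 and 10 and 61 to 111 on ILC2, with no overlap. The ILC2 class held 7 cells with mast cell transcripts. CD117, which mast cells carry, was at 27.7 and 10.4 counts per ILC2 in mice 9 and 10 and at 0.4 to 3.64 in the other mice, and without those 7 cells it fell below the filter on low counts, CD11b missed the threshold (adjusted p = 0.0515, edgeR), CD55 was newly raised and 10 antibodies were called.

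**Figure D2:**
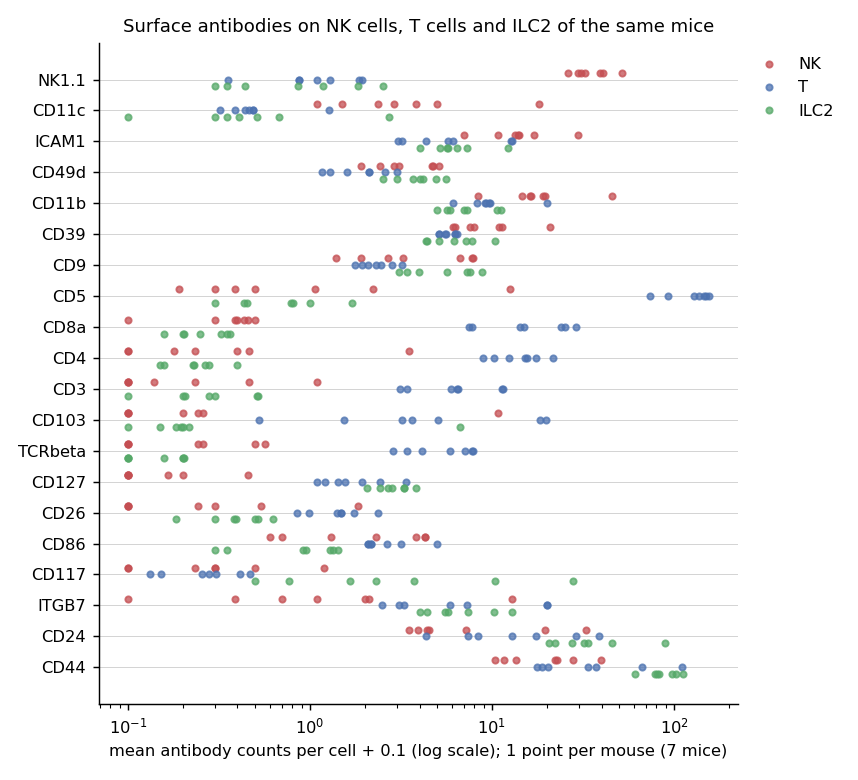
Mean antibody counts per cell plus 0.1 (log axis) for NK cells, T cells and ILC2, with 1 point for each of the 7 mice with at least 5 NK cells. NK1.1 separates NK cells from both other classes, CD5 separates them from T cells, and CD44 from ILC2.

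The transcripts of NK cells are described by their CPM, as the cells were chosen by transcripts and no test of a gene against other classes applies. As background, 1061 of the 1559 genes at 100 CPM or more in NK cells (68.1%) had a higher CPM there than in T cells, and 49.6% of the 11730 genes with a UMI in NK cells were higher than in both T cells and ILC2. Since the libraries count the 3′ ends of molecules, CPM is compared here between classes for 1 gene at a time. Among genes at 100 CPM or more, the 10 with the largest fold over T cells were Klra4, Ccl17, Klrb1c, Ncr1, Klra8, Klrb1a, Styk1, Klri2, Klra9 and Klre1. Klrb1c and Ncr1 were at 0 UMIs in T cells because the T cells were defined so. Klra8 was also at 0 there and at least 895-fold higher in NK cells, taking 3 UMIs over all T cells as the floor. The Ccl17 UMIs came from 1 NK cell. The kinase-like gene Styk1 was 199.7-fold and the lectin-like receptor gene Klre1 139-fold higher.

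Of 21 activating receptors and adaptors, 18 had a higher CPM than in T cells and 20 than in ILC2, counts that include Ncr1 and Klrb1c, which both of those classes were defined to lack. The adaptor Tyrobp (DAP12) stood at 2003 CPM against 58.9 in T cells and 87.4 in ILC2, and Fcer1g, which couples NKp46 and CD16, at 1782 against 53.1 and 110, and both genes are also used by macrophages. Klre1, whose product pairs with other lectin-like chains, was at 902 CPM against 6.47 in T cells, and Klrk1, which encodes NKG2D, at 817 against 79.2. Ncr1 ranged over the mice from 356 to 1040 CPM, with 1040, 392, 356, 367, 561, 469 and 412 in mice 1, 5, 6, 7, 8, 9 and 10, and Klrb1c was at 553, 1020, 463, 590, 734, 660 and 898 CPM in the same order. Mouse 1 was highest for Ncr1 and mouse 5 for Klrb1c, so the 2 genes did not share their order. Sh2d1b2 was at 0.

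Inhibitory receptors were unevenly spread among the cells. On that list, 14 of 17 genes were higher than in T cells and 14 than in ILC2. Klrd1, the CD94 chain, stood at 680 CPM against 59.1 in T cells, and Klrc1, its NKG2A partner, at 299 CPM with a UMI in 45 of 83 cells. The Ly49 genes Klra4, Klra7, Klra8, Klra9 and Klra3 stood at 439, 393, 457, 349 and 192 CPM, with UMIs of Klra4 in 28 cells, Klra7 in 45, Klra8 in 39 and Klra9 in 40. Of the 83 cells, 9 had UMIs of none of the Ly49 genes counted, 21 of 1, 15 of 2, 15 of 3, 17 of 4 and 6 of 5. The family is known to be expressed in different sets from cell to cell, but a gene at 0 UMIs in a cell may be missed rather than absent, and as near copies of each other the genes can have reads assigned to the wrong one or lost.

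Granule genes were almost all higher in NK cells: 20 of 20 on the list against T cells and 18 of 20 against ILC2. Gzma stood at 4695 CPM against 81.9 in T cells and 0 in ILC2, and Nkg7, a granule membrane gene, at 2191 against 246 and 22.2 with a UMI in all 83 cells. Gzmb was found in 54 cells (541 CPM) and Prf1 in 68 (428 CPM), and Fasl, a death ligand, in 70 (268 CPM). The proteoglycan Srgn (943 CPM) packs granules, and the serpins Serpinb9 (941 CPM) and Serpinb6b (762 CPM) inhibit granzymes. Gzma varied most between mice among the 4 marker genes, with 13206, 5020, 1522, 2364, 4641, 2474 and 6058 CPM in mice 1, 5, 6, 7, 8, 9 and 10, while Prf1 was at 664, 314, 187, 283, 518, 254 and 712. Mice 1 and 10 were the highest for both genes.

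Of the NK cytokine and chemokine list, 9 of 16 genes were higher than in T cells and 5 than in ILC2. Ccl5 (RANTES) had a UMI in all 83 cells and stood at 8163 CPM against 796 in T cells, with 11061, 9961, 6087, 5245, 6346, 4364 and 14647 in mice 1, 5, 6, 7, 8, 9 and 10. Xcl1, which attracts cross-presenting dendritic cells, was at 1273 CPM against 29.1 in T cells. Ccl4 was at 1417 CPM in NK cells and 2947 in macrophages. Ifng, the interferon-gamma gene, was found in 30 cells (139 CPM against 17.4 in T cells), and Lta, Il10 and Il22 were at 0.

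Among 22 lineage transcription factors, 10 were higher than in T cells and 12 than in ILC2. Gata3, on this list, was required of every ILC2, so its direction against them was partly fixed. Eomes had a UMI in 47 NK cells (189 CPM), 4.94% of T cells and 0% of ILC2 and B cells, and Tbx21 in 58 NK cells against 0.170% of B cells, the class taken as background at a median of 5755 UMIs. Both were found in 33 cells and neither in 11. Irf8, a regulator of NK maturation, stood at 651 CPM against 7.32 in T cells, Id2, which restrains E proteins, at 731, Ets1 at 567, Klf2 at 343 and Runx3 at 268. Tox2 was at 0.

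Cytokine and chemokine receptors followed, with 12 of 18 and 8 of 12 genes higher than in T cells. Against ILC2, 10 and 9 were higher, and the first list holds Il1rl1, which helped to define the ILC2. Il2rb was found in all 83 cells at 971 CPM against 143 in T cells, and the IL-18 receptor genes Il18r1 and Il18rap stood at 170 and 162 CPM. Il7r went the other way, at 141 CPM against 990 in T cells and 1185 in ILC2, with a UMI in 23 NK cells. Among the trafficking receptors, Ccr2 (534 CPM), Cxcr4 (508) and the sphingosine-1-phosphate receptor gene S1pr4 (93.4) were among those with the most UMIs, and Ccr7 was seen in 1 cell. Of 20 genes of the JAK-STAT pathway and its feedback, 13 were higher than in T cells, with Jak1 at 725 CPM, Stat4, the IL-12 signal carrier, at 343, and the survival genes Mcl1 and Bcl2 at 303 and 250. The interferon-stimulated list had 5 of 15 measured genes higher than in T cells, with Ly6e at 795 CPM and Ifit1, Ifit2, Ifit3, Oasl2 and Rsad2 at 0. Immediate-early and heat shock genes were higher than in T cells for 9 of 17 genes and than in ILC2 for 2 of 17, Junb and Jund standing at 1270 and 776 CPM.

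Lists for circulating and for tissue-resident states differed in their counts. Of 15 genes of mature circulating NK cells, 13 were higher than in T cells and 13 than in ILC2. Of 19 tissue-resident and type 1 innate lymphoid cell (ILC1) genes, 5 and 8 were, led by Rgs1 at 649 CPM and Thy1 at 244. Cd3g, on the latter list, helped to define the T cells and was limited in NK cells, so its direction was partly fixed. Over all 11730 genes with a UMI in NK cells, 60.0% were higher than in T cells and 69.4% than in ILC2 (68.1% and 75.9% of the genes at 100 CPM or more). The counts over T cells for NK cytokines and chemokines, cytokine receptors, trafficking receptors, JAK-STAT genes and proliferation genes lay near these shares. Summed, the proliferation genes stood at 1273 CPM in NK cells and 1305 in T cells. Of 9 proliferation genes, 6 were higher than in T cells and 9 than in ILC2, and Mki67 was found in 9 cells, 3 from mouse 1 and 2 each from mice 6, 7 and 9, of which 7 also had Top2a.

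**Figure D3:**
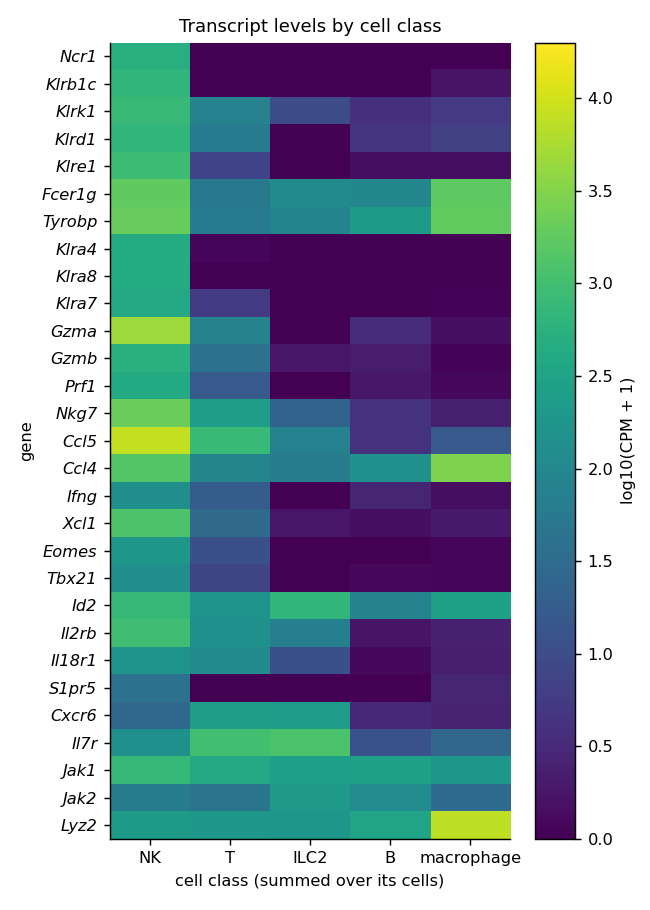
Heat map of log10(CPM + 1) of selected genes (rows) in NK cells, T cells, ILC2, B cells and macrophages (columns), each from the UMIs of a class summed over all mice. Gzma is at 4695 CPM in NK cells and 81.9 in T cells, whereas Il7r is at 141 in NK cells and 1185 in ILC2.

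The driver of the transgene and its target were both seen in NK cells at low levels. Lyz2, whose promoter drives the Cre, had a UMI in 63 NK cells (75.9%), 65.0% of T cells, 66.3% of ILC2, 63.9% of B cells and 98.8% of macrophages, and stood at 218 CPM in NK cells, 193 in T cells, 190 in ILC2, 327 in B cells and 7595 in macrophages. The NK level lay between those of the other lymphocyte classes. Jak2 stood at 61.8 CPM in NK cells, 44.4 in T cells, 206 in ILC2, 117 in B cells and 30.5 in macrophages, with 55.3, 0, 107, 79.0, 21.6, 50.7 and 48.5 CPM in mice 1, 5, 6, 7, 8, 9 and 10. The 2 Jak2WT and 5 Jak2V617F Myel mice overlapped, Jak2 had too few UMIs for the test between genotypes, and the counts do not separate the mutant from the normal allele.

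NK cells were present in 9 of 10 aortas at a few percent or less of the kept leukocytes. In Jak2WT mice 1 to 5 they numbered 10 of 317, 3 of 403, 2 of 575, 0 of 146 and 5 of 654 cells, or 3.15% (exact 95% binomial interval 1.52 to 5.72), 0.744% (0.154 to 2.16), 0.348% (0.0422 to 1.25), 0% (0 to 2.49) and 0.765% (0.249 to 1.78). By the floor of 3 counts, a one-sided limit and so lower than the end of the two-sided interval above, the 0 of 146 cells in mouse 4 allows a share of up to 2.05%. In Jak2V617F Myel mice 6 to 10 they numbered 11 of 424, 25 of 1009, 5 of 417, 7 of 1058 and 15 of 891, or 2.59% (1.30 to 4.59), 2.48% (1.61 to 3.64), 1.20% (0.390 to 2.78), 0.662% (0.266 to 1.36) and 1.68% (0.945 to 2.76). Mouse 1 had the highest share of all and the other Jak2WT mice made up 4 of the 5 lowest, so the genotypes overlapped. These intervals cover counting error only.

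The mean share was 1.00% ± 1.24 in Jak2WT and 1.72% ± 0.826 in Jak2V617F Myel mice (SD, n = 5 each), which differed by 0.721 points of percent (exact permutation test, two-sided, p = 0.302, where the smallest possible is 0.00794). Without mouse 1 the difference was 1.26 points (exact permutation p = 0.0476). Mice with dilation had 1.83% ± 0.708 (n = 3) and mice with aneurysm 1.57% ± 1.28 (n = 2), and the latter differed from all other mice (1.31% ± 1.1, n = 8) by 0.259 points (exact permutation p = 0.822, smallest possible 0.0222). That difference was -0.295 with the NK1.1 antibody gate, -0.649 without mouse 7 and 1.17 without mouse 9. The 2 aneurysm mice lay far apart, at 2.48% and 0.662%. A share falls when other leukocytes increase, and fewer NK cells and more of the other cells cannot be told apart. Counted among lymphocytes alone, NK cells made up 3.41% in Jak2WT and 6.95% in Jak2V617F Myel mice (exact permutation p = 0.175).

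**Figure D4:**
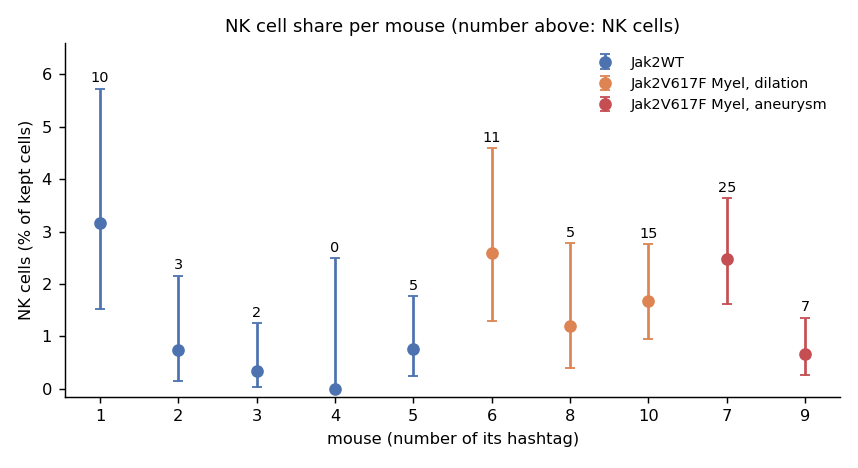
NK cells as a percent of kept cells in each of the 10 mice, with exact 95% binomial intervals, coloured by genotype and aortic disease, and with the number of NK cells above each point. Mouse 1 of the Jak2WT group, at 3.15%, lies above every other mouse, and the groups overlap.

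Gene expression of NK cells was compared between 2 Jak2WT mice (1 and 5) and 5 Jak2V617F Myel mice, those with at least 5 NK cells. Of 1965 genes tested on UMIs summed per mouse, 0 were raised (0%) and 4 were lowered (0.204%) in Jak2V617F Myel NK cells at an adjusted p under 0.05 (edgeR). They were the stress-induced chaperone genes Hspa1b and Hspa1a, the chymase gene Cma1 and Cd48, which encodes a ligand of the receptor 2B4. Hspa1b, Hspa1a and Cma1 passed the filter on low counts only through the Jak2WT mice, where they are high. Their p-values are therefore given as a description, with no conclusion drawn from them. For 303 of the genes tested (15.4%) the mice of the 2 genotypes did not overlap, and 162 had an unadjusted p under 0.05. DESeq2 called 3 genes raised and 6 lowered, sharing 3 with edgeR, and no gene was called without mouse 1, which leaves mouse 5 as the only Jak2WT mouse, although the folds of Hspa1b (-4.10), Hspa1a (-3.45), Cma1 (-2.16) and Cd48 (-1.85) kept their direction. With at least 1 NK cell per mouse, which adds Jak2WT mice 2 and 3, 4 genes were called, of which only Cd48 was among those above (-1.91, adjusted p = 0.00534, edgeR), and Hspa1b, Hspa1a and Cma1 fell below the filter on low counts.

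Hspa1b was at 564 and 549 CPM in Jak2WT mice 1 and 5 and at 17.8, 32.5, 21.6, 25.4 and 24.3 in Jak2V617F Myel mice 6 to 10, and fell by 4.35 on the log2 scale (SE 0.34, adjusted p = 1.52e-05). Hspa1a was at 354 and 627 CPM against 80.1, 46.5, 21.6, 25.4 and 40.4, and fell by 3.22 (SE 0.42, adjusted p = 0.00303). Both genes had 1 to 10 UMIs per Jak2V617F Myel mouse and passed the filter on low counts only through Jak2WT mice 1 and 5. Neither gene overlapped between these 7 mice, but the 2 are near-identical copies and their reads are hard to assign. Of the Jak2WT mice with fewer NK cells, mouse 2 (3 cells) was at 46.3 CPM for both genes, which for Hspa1a overlaps with the mutant mice, and mouse 3 (2 cells) was at 1188 for Hspa1a and 209.6 for Hspa1b. In T cells, with all 10 mice, Hspa1b ranged from 107 to 567 CPM in Jak2WT and from 120 to 579 in Jak2V617F Myel mice, and the genotypes also overlapped in ILC2, B cells and macrophages. The 4 heat shock genes of the list summed to 2000 and 3064 CPM in the Jak2WT NK cells and to 552 to 766 in the others. That sum contains Hspa1a and Hspa1b, so it is no separate result. The sum of the 13 immediate-early genes overlapped between the genotypes.

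Cma1 was at 332 and 196 CPM in mice 1 and 5 against 35.6, 32.5, 43.2, 38.1 and 32.4, and fell by 2.94 (SE 0.46, adjusted p = 0.0108). The Jak2WT values rest on 30 and 5 UMIs, the latter from 1 cell, and Jak2WT mice 2 and 3 were at 46.3 and 0 CPM, which overlaps with the mutant mice. Cma1 had 2 to 7 UMIs per Jak2V617F Myel mouse and passed the filter on low counts only through Jak2WT mice 1 and 5. DESeq2 gave no adjusted p for Cma1. Cd48 was at 409 and 471 CPM against 125, 116, 130, 88.8 and 80.9, and fell by 1.97 (SE 0.31, adjusted p = 0.0108), and mice 2 and 3 were at 278 and 489 CPM. All 4 Jak2WT mice with an NK cell were above the 5 Jak2V617F Myel mice for Cd48, and in T cells, ILC2, B cells and macrophages the genotypes overlapped. The Cd48 call was lost without mouse 1 (adjusted p = 0.399), without mouse 5 (0.0544) and with at least 3 gate UMIs, which also drops mouse 5 (0.0517, all edgeR), settings that each leave 1 Jak2WT mouse.
Gzma, Prf1 and Lyz2 did not pass the test between genotypes. The log2 change was -1.44 for Gzma (SE 0.43, adjusted p = 0.335), -0.42 for Prf1 (adjusted p = 0.871) and 0.54 for Lyz2 (adjusted p = 0.802), by edgeR. Gzma depended on the setting, at -1.34 without a filter on low counts (adjusted p = 0.00524), -2.01 with at least 10 cells per mouse, which leaves mouse 1 alone in the Jak2WT group (adjusted p = 0.0300), and -0.31 without mouse 1 (adjusted p = 0.801, all edgeR). Ncr1 (-0.82) and Klrb1c (-0.14) are given with no test, since the rule used them. Of 12 tested genes of mature circulating NK cells 1 was lowered (Cma1), with a list median of -0.66, and of 16 tested immediate-early and heat shock genes 2 were lowered, with a list median of -0.59, against a median of 0.06 over all genes tested. Over all genes tested, 0.204% were lowered. Cma1, Hspa1a and Hspa1b passed the filter on low counts only through the Jak2WT mice, so these list counts carry no test. The 6 tested tissue-resident genes had a median of 1.52 and the 17 tested activating receptors one of -0.46. The latter include Ncr1 and Klrb1c, which the rule used, and neither median was tested. The NK cells with a Gzma UMI, which carried more Cma1 (104 against 13.8 CPM), made up 18 of 20 cells in Jak2WT and 41 of 63 in Jak2V617F Myel mice, with 10 of 10 in mouse 1, and the part of this proportion in the differences was not tested. No gene was called among the activating receptors (2 of them used by the rule), 10 inhibitory receptors, 12 granule genes, 7 cytokines and chemokines, 11 transcription factors, 9 JAK-STAT genes, 8 cytokine receptors, the tissue-resident genes, 5 proliferation genes, 4 trafficking receptors or 3 interferon-stimulated genes. Of 27 antibodies tested on NK cells between the genotypes, 0 were called (0%), 3 had an unadjusted p under 0.05, and the smallest adjusted p was 0.362 (edgeR). DESeq2 also called 0. The NK1.1 antibody differed by -0.09 (adjusted p = 0.921, edgeR). The sort stained the genotypes with anti-CD45.2 antibodies of different colours, a difference that cannot be told apart from genotype.

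Within the NK cells, Gzma itself split the population. It was found in 59 of 83 cells, with up to 206 UMIs in a cell, and in 11.7% of T cells and 1.70% of B cells. The split and the genes and antibodies named along it were chosen after the values were seen and are given as a description with no test. Gzma+ cells had a median of 7793 UMIs and Gzma- cells 6268, so cells were also thinned to 2000 UMIs each. Eomes was found in 45 of 59 Gzma+ cells and 2 of 24 Gzma- cells (266 and 9.21 CPM), and after thinning in 23 and 2. The Ly49 genes Klra7 (43 and 2 cells), Klra8 (36 and 3) and Klra4 (27 and 1) went with Gzma, as did Irf8 (56 and 9), Prf1 (54 and 14), the CD49b gene Itga2 (38 and 4), Zeb2 (35 and 7) and the egress receptor gene S1pr5 (17 and 0). Klra9 (28 and 12) and Tbx21 (43 and 15) did not follow this split, and Klrb1c (58 and 24), Klrk1 (59 and 24) and Ncr1 (56 and 20) were common to both.

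Another group of genes was found mostly in Gzma- cells. Il7r had a UMI in 17 of 24 Gzma- and 6 of 59 Gzma+ cells (382 and 39.1 CPM), and after thinning in 9 and 4. The inhibitory receptor gene Cd200r1 was found in 15 and 2 cells, the phosphatase gene Inpp4b in 16 and 4, the ion channel-like genes Tmem176a in 12 and 2 and Tmem176b in 15 and 4, the chemokine receptor gene Cxcr6 in 10 and 0, and Icos in 18 and 12. After thinning, Cd200r1, Inpp4b and Cxcr6 were found in 9, 7 and 7 Gzma- cells and in 0 Gzma+ cells. Cd8a was at 0 in both, Cd3g was found in 7 and 5 cells, and Trac in 4 and 4. The CD5 antibody averaged 4.29 counts on Gzma- and 0.39 on Gzma+ cells. Gzma- cells averaged 30.5 CD5 counts in mouse 5, 23 in mouse 10 and 0 to 1.7 in the other mice. CD3 averaged 0.417 and 0.0339, and TCR-beta 0.417 and 0.0678, with 5 on the Gzma- cell of mouse 10. The medians of these antibodies were 0 in both groups. Gzma- cells numbered 2, 6, 10, 2, 3 and 1 in mice 5, 6, 7, 8, 9 and 10 and 0 in mice 1, 2 and 3. Whether the Gzma- cells are ILC1 or include T cells was not tested.

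Surface CD44 differed along the same split. CD44 averaged 12.7 counts on Gzma+ and 44.7 on Gzma- cells and was higher on Gzma- cells in 6 of the 6 mice that held both. The medians were 10 and 37. In mouse 7, with the most cells, CD44 averaged 9.4 and 55.7 counts. Its Gzma- cells included 1 with many MHC class II UMIs at 181 CD44 counts and 1 of 30081 UMIs at 102. The Gzma+ cell of mouse 6 with many MHC class II UMIs was at 101. Mouse 9 averaged 21.25 and 24.3, and mouse 10 held only 1 Gzma- cell. NK1.1 averaged 35.9 and 33.3, so both kinds of cell carried it. Of the 83 cells, 2 had over 100 MHC class II UMIs per 10000, and these had 28129 UMIs (mouse 7, with 51 UMIs of Ccr7) and 27323 UMIs (mouse 6).

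**Figure D5:**
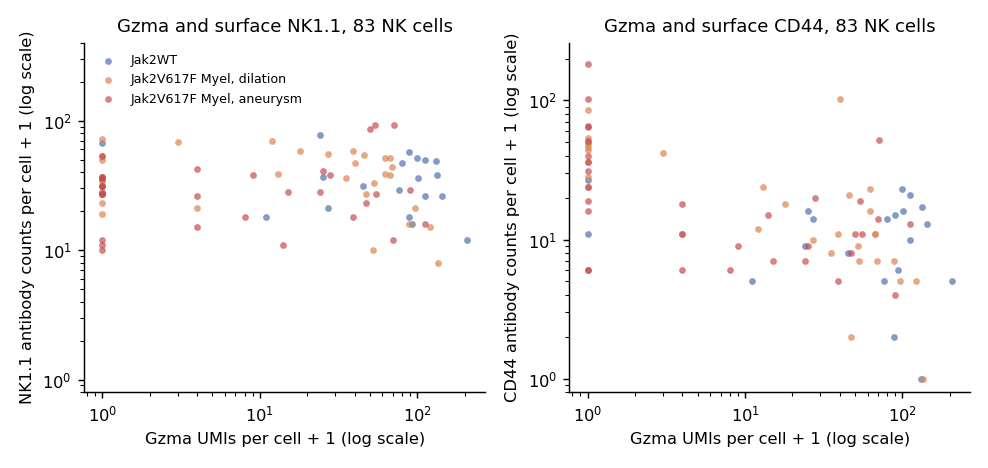
Surface NK1.1 (left) and CD44 (right) counts plus 1 against Gzma UMIs plus 1 (log axes) in the 83 NK cells, coloured by genotype and aortic disease. The cells without a Gzma UMI, at the left edge, average 33.3 NK1.1 and 44.7 CD44 counts.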

How the data were processed

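Aortas of 10 mice were digested, stained with 75 antibodies and 1 of 10 hashtag antibodies each after Fc receptor block, sorted, pooled and run as 1 set of 3 libraries (transcripts, antibodies, hashtags). The deposited table holds raw counts (UMIs) of 32285 genes, 75 antibodies and 10 hashtags in 8471 barcodes, made by the authors with Cell Ranger 6.0.2 on mm10; the submitters' processing notes also name Seurat 3.0.0. From these counts, cells were assigned to mice, filtered and classed as given in the report. Doublets were removed by the hashtag ratio only, which leaves doublets within a mouse. The mouse was the replicate.

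UMIs and antibody counts were summed per mouse and class, in mice with at least 5 NK cells, filtered with filterByExpr, scaled by TMM and tested with edgeR 4.0.16 (limma 3.58.1, R 4.3.3), with Benjamini-Hochberg adjustment over all features tested and a threshold of 0.05. NK cells against T cells or ILC2 had the mouse as a block, since both sums come from the same animal. Exact two-sided permutation tests were used for shares, with Clopper-Pearson intervals at the 95% level and a floor of 3 counts. All compared classes had under 2 UMIs of Ncr1 and Klrb1c, and T cells, ILC2 and B cells had 0. T cells had Cd3e and Cd3d or Cd3g, ILC2 had Gata3 and Il5, Il13 or Il1rl1, B cells had at least 2 Cd79a UMIs, and macrophages at least 10 C1q UMIs per 10000. The scripts were tested on simulated data. Python 3.11.15, numpy 2.4.6, scipy 1.17.1, pandas 2.3.3, matplotlib 3.10.9 and DESeq2 1.42.0 were also used.

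The rule for the cells, the gene lists and the tests were chosen with earlier results of these data known. Named were, per list, up to 5 genes with the highest CPM and defining genes at 0, up to 5 called genes and up to 8 called antibodies per direction with the largest fold change, NK1.1, the 10 largest folds over T cells, Jak2 and Lyz2; genes named along the Gzma split, and Il7r, Il18r1, Il18rap, Fasl and Tbx21, were added after their values were seen. Alternatives were DESeq2, its size factors, scaling to cells, no filter, other cell minimums, other gates, other denominators, no block and leaving out each mouse. A few genes and antibodies counted in the totals are not reported here by name.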

Additional observations from a re-analysis of the deposited data

Results flagged for a closer look

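The NK cell share of Jak2WT mouse 1, 3.15% of kept cells, lay far from the other 4 Jak2WT mice, which ranged from 0 to 0.765%. In mouse 6, a Jak2V617F Myel mouse, the mean counts per NK cell of 4 antibodies lay far from those of the other 4 mutant mice: CD103 at 10.7 (others 0 to 0.16), CD11c at 18.0 (1.0 to 3.72), ITGB7 at 12.8 (0.286 to 2.0) and CD26 at 1.73 (0 to 0.44). In that mouse, 1 of the 2 NK cells with high MHC class II carried 117 of 118 CD103, 171 of 198 CD11c, 136 of 141 ITGB7 and 19 of 19 CD26 counts, and without it the means were 0.1, 2.7, 0.5 and 0. CD127 on NK cells of mouse 7 was at 0.36 counts per cell, where the other mutant mice ranged from 0 to 0.0667. These 6 values came from 32 tested, and chance alone marks about 1 in 20. Among the 1164 barcodes that were not assigned to a mouse but passed the mitochondrial and UMI limits, which no comparison used, 3 (0.258%) met the NK rule.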

How the results depend on the processing

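The genotype difference in share stayed positive, between 0.320 and 1.26 points of kept cells (3.55 points of lymphocytes), and missed the threshold except without mouse 1 (1.26 points, p = 0.0476, exact permutation); leaving out 1 mouse gave 0.470 to 1.26 points. The aneurysm difference was -0.295 with the NK1.1 gate and ranged from -0.649 (without mouse 7) to 1.17 with 1 mouse left out. Between genotypes the count of called genes was 4, but 9 with DESeq2, 38 without a filter (26 raised and 12 lowered), 36 with at least 10 cells per mouse, which leaves 1 Jak2WT mouse whose spread is taken as that of the others, and 0 to 5 with 1 mouse left out (0 without mouse 1). Antibodies called between genotypes numbered 2 without the MHC class II-high cells (CD11b and CD5, both lower, an alternative chosen after seeing the data) and 0 to 1 with 1 mouse left out (CD4 without mouse 1, CD11b without mouse 5). Klrb1c turned to 0.0863 without a filter and, with mouse 1 the only Jak2WT mouse, to 0.23 with at least 10 cells, 0.27 with at least 3 gate UMIs (which takes mouse 5 below 5 cells) and 0.26 without mouse 5. Without mouse 1, Ncr1 turned to 0.38, Prf1 to 0.55 and Lyz2 to -0.0739. The NK1.1 antibody turned to 0.15 without a filter, 0.0697 without the MHC class II-high cells and 0.10 without mouse 8. Antibodies called against T cells numbered 21 with DESeq2 (5 raised and 16 lowered), 10 with at least 10 cells per mouse and 11 to 17 with 1 mouse left out, of which 3 were raised without mouse 1, 9 or 10; against ILC2 they numbered 7 (without mouse 10) to 14. Without the replicate block 16 were called against T cells, of which 15 were among those with the block (CD103 was lost, adjusted p = 0.0701), and 12 against ILC2, which included all 11. Causes were not tested. Of 489 other values for 36 named genes and antibodies, 410 kept direction and call, 66 kept direction and missed the threshold, 3 newly passed it and 10 turned. Those 3 were Gzma without a filter and, with the 1 Jak2WT mouse of at least 10 cells, Gzma and Ncr1, the latter no result since the rule used it. Scaling to isotype controls was not run, as NK cells of mice 5 and 8 had 0 isotype counts. With 83 NK cells, and 0 to 25 per mouse, low genes and small share differences were not detectable at this depth.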
